A study of Mus musculus with 6 samples.

Results

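Skeletal muscle sarcomere genes encode the contractile filaments of striated muscle together with the discs that anchor them, the calcium store and channels that trigger contraction, and the creatine kinase that supplies energy. The set was a list of 43 gene symbols chosen by name (thick and thin filament, Z disc, M band, calcium handling, and slow, fast and developmental isoforms). All 43 were among the 24346 symbols of the files, and 37 of them had a mean of at least 1 FPKM (a level scaled to transcript length and library size) over the 6 libraries and entered the test. The other members, Myh1, Myh2, Myh4, Myl2, Myl3 and Mybpc2, had means from 0.0133 to 0.933 FPKM and are described by their values.

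RNA came from the nose and upper jaw (nasomaxillary complex) of untreated mouse embryos at E17.5, a tissue in which bone, cartilage and skin lie beside muscle. Mutant libraries (n = 3) came from embryos of genotype Wnt1-Cre:Pth1r f/f, in which Cre is driven from the Wnt1 transgene in the neural crest. Control libraries (n = 3) came from Pth1r f/f embryos, which carry the same floxed receptor gene and no Cre, so an effect of the transgene and loss of Pth1r cannot be told apart. Each library was made from messenger RNA by a stranded kit. Nothing states that the 3 libraries of a group are different embryos, so p-values measure the spread between these libraries, which may be technical in part. Mutant replicate 1 differed in sex from mutant replicates 2 and 3, as described below, so it was not made from the same embryo as they were. For the other libraries this is not known. Pth1r, the targeted gene, measured 77.3, 78.4 and 69.7 FPKM in mutant libraries, against 75.2, 55.2 and 73.5 FPKM in control libraries (limma adjusted p = 0.686). The groups overlapped, and a value for the whole gene in mixed tissue does not check the genotype.

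In background terms, a sarcomere pulls thick filaments of myosin along thin filaments of actin, and troponin and tropomyosin on the thin filament switch that movement on when calcium is released. Most of its proteins exist as several isoforms from separate genes. Fetal muscle first uses embryonic and cardiac-type isoforms and slow ones, and later replaces many of them with adult fast ones. The fibres of facial muscles derive from mesoderm, outside the neural crest in which Wnt1-Cre is active, while their connective tissue and tendons derive from the crest.

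The sequences below show the start regions of 2 isoform pairs whose members are compared throughout, as given by RefSeq on GRCm38.p6 (250 bases before to 50 after the start site, in the direction of transcription). For the embryonic and perinatal myosins, capitals mark E-boxes (CANNTG on either strand), the motif bound by myogenic factors such as MyoD. Myh3 spans chr11:67078050-67078349 and Myh8 chr11:67276874-67277173, both on the plus strand.
Myh3: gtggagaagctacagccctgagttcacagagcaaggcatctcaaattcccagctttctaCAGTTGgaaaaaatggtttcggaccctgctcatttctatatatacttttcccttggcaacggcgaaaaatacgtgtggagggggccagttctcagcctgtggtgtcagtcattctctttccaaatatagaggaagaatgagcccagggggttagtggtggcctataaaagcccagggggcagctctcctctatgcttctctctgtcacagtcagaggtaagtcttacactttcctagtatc
Myh8: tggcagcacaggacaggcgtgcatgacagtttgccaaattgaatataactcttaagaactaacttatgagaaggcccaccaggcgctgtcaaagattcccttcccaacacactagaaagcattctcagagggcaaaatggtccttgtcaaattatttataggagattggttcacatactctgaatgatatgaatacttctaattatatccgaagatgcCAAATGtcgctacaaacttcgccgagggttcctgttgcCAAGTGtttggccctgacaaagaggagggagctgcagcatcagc
For the skeletal and cardiac actins, capitals mark the CArG box, the motif bound by serum response factor. Acta1 spans chr8:123894726-123895025 and Actc1 chr2:114052826-114053125, both on the minus strand.
Acta1: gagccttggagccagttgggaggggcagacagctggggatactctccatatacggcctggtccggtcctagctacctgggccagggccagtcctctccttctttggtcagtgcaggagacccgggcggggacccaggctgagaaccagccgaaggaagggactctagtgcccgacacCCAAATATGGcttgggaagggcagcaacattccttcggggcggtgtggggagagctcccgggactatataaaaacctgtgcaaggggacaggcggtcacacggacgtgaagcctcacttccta
Actc1: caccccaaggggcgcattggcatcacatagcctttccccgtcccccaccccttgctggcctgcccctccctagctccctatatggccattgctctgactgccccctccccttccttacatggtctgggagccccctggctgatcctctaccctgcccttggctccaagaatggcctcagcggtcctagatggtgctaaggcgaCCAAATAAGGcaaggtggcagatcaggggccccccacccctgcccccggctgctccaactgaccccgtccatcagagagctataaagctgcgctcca
The Myh3 window held 1 E-box, whose first base lay at -191 from the start site, and the Myh8 window held 2, at -32 and at 6 after it. Each actin window held 1 CArG box, at -73 in Acta1 and at -47 in Actc1. A window was found for 36 of the 43 members. These members have 42 windows in all, since Ldb3, Myh7, Myl2, Tnni1, Tnnt2 and Tpm3 have 2 each. A CArG box lay in 16.7% of the member windows and in 1.63% of all 32841 windows, and a MEF2 site in 14.3% of the member windows and 3.19% of all. A TATA box (TATAAA) lay in 26.2% of the member windows and 13.6% of all, and an E-box in 85.7% of the member windows and 72.3% of all. Both strands were searched, and motifs may overlap each other. A match describes the letters and not a bound site.

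Sarcomere genes as a whole stood highest in a single mutant library. Of the 37 tested members, 36 had their highest value in mutant replicate 2, a rank held by that library in 21.4% of all 14766 tested genes, and 23 had their lowest in control replicate 2 (15.5% of all tested genes). The summed level of the 43 members was 2312, 3858 and 1942 FPKM in mutant replicates 1, 2 and 3, against 2017, 1507 and 1799 FPKM in control replicates 1, 2 and 3. These sums took 0.440%, 0.741% and 0.377% of total FPKM in mutant libraries and 0.369%, 0.293% and 0.337% in control libraries. Mutant replicate 3 lay below control replicate 1, so the summed levels of the groups overlapped. The mean sum was 2704 ± 1016 FPKM in mutant and 1774 ± 256 FPKM in control (SD, n = 3 each), a ratio of 1.52. In bulk tissue, more muscle cells and more of this RNA per cell cannot be told apart.

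**Figure D1:**
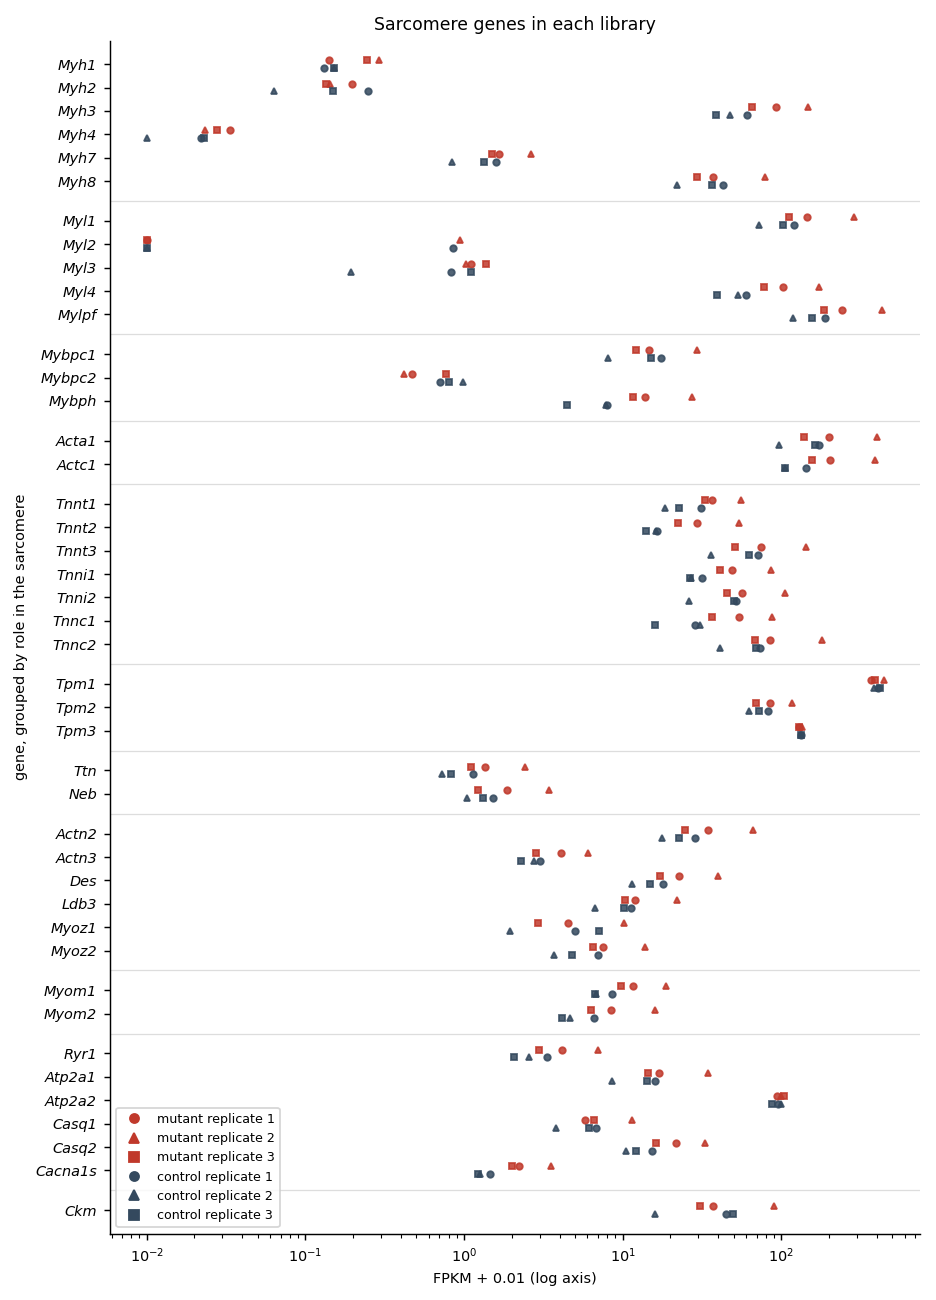
FPKM of each of the 43 members in each library, on a log axis with 0.01 added so that values listed at 0 can be shown. Genes run down the page by role, mutant points lie above control points in each row, and symbols give the replicate. Mutant replicate 2, the red triangle, stands rightmost for most members, while Tpm1, Tpm3 and Atp2a2 are nearly level across libraries.

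No member passed the test between genotypes. Mutant was compared with control by limma on log2(FPKM + 1), mutant minus control, and p was adjusted by Benjamini-Hochberg across the 14766 genes. With adjusted p under 0.05 as the threshold, limma called 0 of 37 members, against 0.264% of all tested genes in either direction (0.061% higher and 0.203% lower). Limma adjusted p ran from 0.244 to 0.97 over the members. At an unadjusted limma p under 0.05 there were 15 members, all higher in mutant, with 5.35% of all tested genes passing in that direction and 5.96% in the other. Log2 changes were positive in 35 of 37 members (49.2% of all tested genes), with a median of 0.66 against -0.0020 over all tested genes. In 11 of the 37 every mutant value lay above every control value, as in 7.85% of all tested genes, and in 0 did every mutant value lie below, as in 9.16% of all.

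Mutant replicate 2 was then left out. Of the 37 members 34 had positive changes (49.2% of all tested genes), with a median of 0.32, and 13 had an unadjusted limma p under 0.05, all higher in mutant, against 4.46% of all tested genes. The smallest limma adjusted p over the members was then 0.13. Groups did not overlap in 11 members again, where 12.6% of all tested genes were separated in that smaller comparison. Mutant replicate 2 was the highest library in 36 of the 37, so leaving it out cannot change their lowest mutant value. That count is therefore no check of the result. Without mutant replicate 3, the mutant library nearest the controls, 29 members did not overlap (14.3% of all tested genes) and 28 had an unadjusted limma p under 0.05, all higher (5.97% of all tested genes). Without control replicate 1 the groups did not overlap in 23 members (13.3% of all tested genes). Without control replicate 2, 10 members had an unadjusted limma p under 0.05, all higher (4.24% of all tested genes). Libraries also differed in sex, since Xist was above 1 FPKM in all 3 controls and in mutant replicate 1 but not in mutant replicates 2 and 3. With sex as a covariate 0 members had an unadjusted limma p under 0.05 (2.07% of all tested genes in the higher direction) and 35 changes were positive (49.6% of all), with a median of 0.50, in a fit that rests on mutant replicate 1 against the controls.

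**Figure D2:**
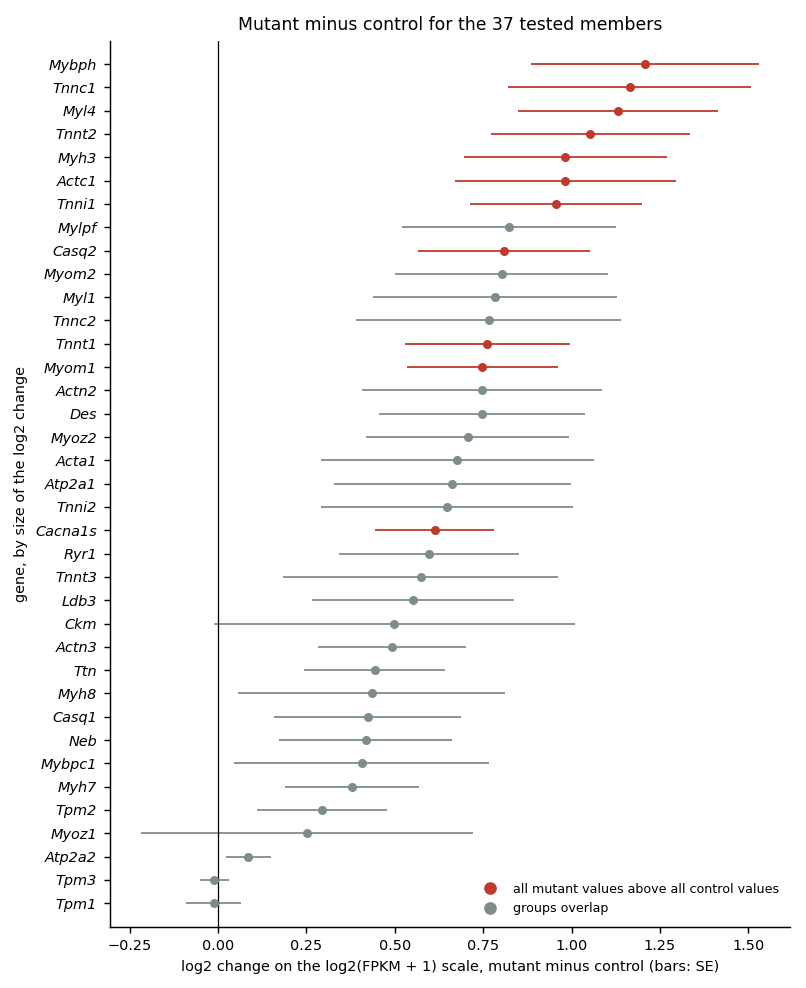
Log2 change of the 37 tested members, mutant minus control, on the log2(FPKM + 1) scale, with SE as bars. Red marks the 11 members in which all 3 mutant values lay above all 3 control values, and these include Mybph, Tnnc1, Myl4, Tnnt2, Myh3, Actc1 and Tnni1 at the upper end.

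Among myosin heavy chains, the motors of the thick filament, embryonic Myh3 was the most abundant in every library and perinatal Myh8 the next. Myh3 measured 91.9, 148 and 65.6 FPKM in mutant replicates 1 to 3, against 60.7, 47.8 and 38.8 FPKM in control replicates 1 to 3. Every mutant value exceeded every control value (log2 change 0.98 ± 0.29 SE, limma adjusted p = 0.298). Myh8 measured 37.3, 79.2 and 29.5 FPKM in mutant libraries, against 42.9, 22.1 and 36.4 FPKM in control libraries. Its groups overlapped, with mutant replicate 3 below 2 of the controls, and its log2 change was 0.44 ± 0.38 (SE, limma adjusted p = 0.725). Myh7, the slow and cardiac beta myosin, was far lower, at 1.66, 2.63 and 1.502 FPKM in mutant libraries and 1.58, 0.833 and 1.32 FPKM in control libraries.

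The adult fast myosins were near the floor of detection. Myh1 (type 2X) ranged from 0.130 to 0.281 FPKM in mutant libraries and from 0.121 to 0.142 FPKM in control libraries. Myh2 (type 2A) ranged from 0.125 to 0.187 FPKM in mutant libraries and from 0.0538 to 0.239 FPKM in control libraries. For Myh4 (type 2B), the values divided by that of control replicate 1 and allowed for library size were 2.0, 1.0 and 0.999 in mutant replicates 1 to 3 and 1.0, 0 and 1.0 in control replicates 1 to 3, the spacing of very few fragments. Myh3, Myh2, Myh1, Myh4 and Myh8 lie in that order on the plus strand of chromosome 11, between 67078300 and 67308634 (GENCODE M21, GRCm38). Among these members alone, the abundant embryonic and perinatal genes stand at the ends and the barely detected adult genes between them. These genes are alike in sequence, and reads shared among them could move the low values. Over the 6 heavy chains, Myh3 took 70.1%, 64.3% and 67.7% of the summed FPKM in mutant libraries, against 57.5%, 67.4% and 50.5% in control libraries, and Myh8 nearly all of the rest.

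Light chains sit on the myosin neck, and here the fast fetal set dominated. Mylpf, the fast regulatory light chain, measured 242, 432 and 186 FPKM in mutant libraries, against 187, 119 and 157 FPKM in control libraries. Mutant replicate 3 fell just under control replicate 1, and the log2 change was 0.82 ± 0.30 (SE, limma adjusted p = 0.384). Myl4, the embryonic and atrial essential light chain, measured 102, 173 and 78.1 FPKM in mutant libraries, against 60.3, 53.3 and 39.6 FPKM in control libraries. Its groups did not overlap, and it had the smallest p of the members (log2 change 1.13 ± 0.28 SE, limma adjusted p = 0.244). Myl1, the fast essential light chain, measured 144, 289 and 111 FPKM in mutant libraries, against 120.5, 72.3 and 103 FPKM in control libraries, with overlap.

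The slow and ventricular light chains were scarce. Myl2, the regulatory one, was listed at 0 in mutant replicates 1 and 3 and in control replicates 2 and 3, with 0.928 FPKM in mutant replicate 2 and 0.838 FPKM in control replicate 1. Myl3, the essential one, measured 1.10, 1.02 and 1.37 FPKM in mutant libraries, against 0.821, 0.185 and 1.09 FPKM in control libraries. Its annotated gene (chromosome 9, 110741861 to 110769798, plus strand) overlaps the 110722085 to 110747145 span of Pth1r on the minus strand by 5285 bases, and the strand setting of the counting is not given, so its low values are uncertain.

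Myosin-binding proteins tie the thick filament together. Mybpc1, the slow form, measured 14.7, 29.4 and 12.2 FPKM in mutant libraries, against 17.54, 8.13 and 14.99 FPKM in control libraries, and the groups overlapped. Mybph, a shorter relative, measured 13.9, 27.4 and 11.6 FPKM in mutant libraries, against 7.95, 7.83 and 4.44 FPKM in control libraries. All its mutant values lay above its control values, at a log2 change of 1.21 ± 0.32 (SE, limma adjusted p = 0.265), the largest among the members. Mybpc2, the fast form, ran from 0.410 to 0.766 FPKM in mutant libraries and from 0.699 to 0.982 FPKM in control libraries, and its lowest value was in mutant replicate 2, the library in which 36 of the 37 tested members were highest.

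The 2 sarcomeric actins, the backbone of the thin filament, were present at similar levels. Actc1, the cardiac actin that fetal skeletal muscle also uses, measured 203, 391 and 157 FPKM in mutant libraries, against 144, 105 and 105 FPKM in control libraries. Its groups did not overlap (log2 change 0.98 ± 0.31 SE, limma adjusted p = 0.329). Acta1, the skeletal actin, measured 199.8, 399 and 139 FPKM in mutant libraries, against 172, 96.5 and 163 FPKM in control libraries, and mutant replicate 3 lay below 2 of the controls. The coding sequences of these genes are nearly identical, so fragments could be split between them. In the start regions printed above both carry a CArG box.

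Troponin switches the thin filament on, and 4 of its 7 genes, Tnni1, Tnnt1, Tnnt2 and Tnnc1, had mutant values above all control values (7.85% of all tested genes). The other 3, Tnni2, Tnnt3 and Tnnc2, overlapped, and whether slow and fast forms differ is addressed only by the isoform ratios, none of which was separated. Troponin I, the inhibitory subunit, has a slow form, Tnni1, at 49.1, 85.6 and 41.3 FPKM in mutant libraries, against 31.8, 26.8 and 26.5 FPKM in control libraries. Its fast form, Tnni2, measured 56.4, 106 and 45.5 FPKM in mutant libraries, against 51.6, 26.3 and 50.7 FPKM in control libraries. The groups did not overlap for Tnni1 (log2 change 0.96 ± 0.24 SE, limma adjusted p = 0.247) and did for Tnni2 (0.65 ± 0.36 SE, limma adjusted p = 0.548).

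Troponin T, the subunit that binds tropomyosin, has a cardiac, a slow and a fast form. Tnnt2, the cardiac form that is also made in fetal skeletal muscle, measured 29.6, 54.4 and 22.4 FPKM in mutant libraries, against 16.4, 16.1 and 13.9 FPKM in control libraries. Tnnt1, the slow form, measured 36.5, 55.4 and 33.0 FPKM in mutant libraries, against 31.3, 18.4 and 22.6 FPKM in control libraries. Neither overlapped between groups, with log2 changes of 1.05 ± 0.28 and 0.76 ± 0.23 (SE) and limma adjusted p of 0.265 and 0.31. Tnnt3, the fast form, measured 74.1, 143 and 51.3 FPKM in mutant libraries, against 71.8, 36.2 and 62.4 FPKM in control libraries, and overlapped. Tnni1 and Tnnt2 lie near each other on chromosome 1 (135779434 to 135852260), as do Tnni2 and Tnnt3 on chromosome 7 (142441808 to 142516009).

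Troponin C binds the calcium. Tnnc1, its slow and cardiac form, measured 53.8, 87.1 and 36.3 FPKM in mutant libraries, against 28.4, 30.9 and 16.1 FPKM in control libraries, without overlap (log2 change 1.16 ± 0.34 SE, limma adjusted p = 0.298). Tnnc2, its fast form, measured 84.5, 182 and 67.8 FPKM in mutant libraries, against 73.3, 41.03 and 69.0 FPKM in control libraries, with mutant replicate 3 below 2 of the controls.

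Tropomyosins, which lie along the actin filament, varied less between libraries, apart from Tpm2. Tpm1 measured 369, 441 and 391 FPKM in mutant libraries, against 408, 381 and 420.0 FPKM in control libraries. Tpm3 measured 130.1, 135 and 129.8 FPKM in mutant libraries, against 132, 133 and 132 FPKM in control libraries. Both genes are also used by cells other than muscle, and their log2 changes were -0.013 and -0.011. Tpm2 lay between, at 85.4, 116 and 69.4 FPKM in mutant libraries and 82.0, 62.7 and 72.1 FPKM in control libraries.

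The giant proteins and the Z disc and M band genes were likewise highest in mutant replicate 2. Ttn, the spring and ruler of the sarcomere, measured 1.35, 2.40 and 1.10 FPKM in mutant libraries, against 1.14, 0.715 and 0.824 FPKM in control libraries. Neb, the ruler of the thin filament, measured 1.86, 3.42 and 1.22 FPKM in mutant libraries, against 1.52, 1.03 and 1.31 FPKM in control libraries. Both overlapped between groups, since mutant replicate 3 fell under control replicate 1.

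Of the 6 Z disc genes none was separated between groups, and their log2 changes ran from 0.25 to 0.75. Of all tested genes 7.85% were separated with mutant above control and 9.16% with mutant below. A lack of separation in 6 genes therefore does not set them apart from all tested genes. Actn2, the alpha-actinin that crosslinks thin filaments, was the most abundant of them, at 34.3, 66.6 and 24.7 FPKM in mutant libraries and 28.5, 17.6 and 22.6 FPKM in control libraries. Des, which encodes the intermediate filament desmin, measured 22.8, 40.0 and 17.1 FPKM in mutant libraries, against 17.9, 11.5 and 14.9 FPKM in control libraries. Myoz1, the fast-fibre partner of calcineurin at the Z disc, stood out by its spread, at 4.51, 10.2 and 2.90 FPKM in mutant libraries and 5.001, 1.93 and 7.13 FPKM in control libraries. The other 3, Actn3, Ldb3 and Myoz2, had log2 changes of 0.49, 0.55 and 0.71.

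The 2 M band genes cross-link thick filaments. Myom1 measured 11.7, 18.7 and 9.77 FPKM in mutant libraries, against 8.52, 6.74 and 6.69 FPKM in control libraries, without overlap (log2 change 0.75 ± 0.21 SE, limma adjusted p = 0.288). Myom2 measured 8.40, 15.9 and 6.28 FPKM in mutant libraries, against 6.57, 4.64 and 4.12 FPKM in control libraries, with mutant replicate 3 just below control replicate 1.

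Calcium handling genes held both patterns. Cacna1s, the voltage sensor of the muscle membrane, measured 2.202, 3.55 and 2.01 FPKM in mutant libraries, against 1.46, 1.25 and 1.21 FPKM in control libraries. Casq2, the cardiac and slow calsequestrin, measured 21.7, 33.1 and 16.2 FPKM in mutant libraries, against 15.2, 10.5 and 12.2 FPKM in control libraries. Neither overlapped between groups, with log2 changes of 0.61 ± 0.17 and 0.81 ± 0.24 (SE) and limma adjusted p of 0.272 and 0.301.

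The release channel, the pumps and Casq1, the fast calsequestrin (log2 change 0.42), overlapped between groups. Ryr1, the calcium release channel, measured 4.11, 6.98 and 2.97 FPKM in mutant libraries, against 3.32, 2.55 and 2.05 FPKM in control libraries. Atp2a1, the fast muscle calcium pump, measured 16.9, 34.3 and 14.5 FPKM in mutant libraries, against 16.1, 8.54 and 14.1 FPKM in control libraries. Atp2a2, the pump of slow and cardiac muscle that most other cells use as well, measured 94.5, 100.2 and 104 FPKM in mutant libraries, against 94.7, 99.6 and 87.6 FPKM in control libraries, and was the 1 tested member not highest in mutant replicate 2. Ckm, the muscle creatine kinase, measured 37.3, 90.2 and 30.9 FPKM in mutant libraries, against 44.7, 16.1 and 49.6 FPKM in control libraries, and 2 of the mutant values lay below 2 of the control values.

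Ratios of paired isoforms set 1 muscle gene against another in the same library, so a factor that moves both alike leaves the ratio level. This need not hold for Atp2a2 to Atp2a1 or Tpm3 to Tpm1, since Atp2a2, Tpm1 and Tpm3 are also used by other cells. The ratio of Atp2a2 to Atp2a1 was 2.92 in mutant replicate 2 and 11.5 in control replicate 2. For 16 pairs, log2 ratios of FPKM + 0.1 were compared by a two-sided exact permutation test, whose smallest possible p with 3 against 3 libraries is 0.10. No pair was separated between groups, and the exact p adjusted over the 16 pairs was at least 0.667 in each. The ratio of Myh3 to Myh8 was 2.46, 1.87 and 2.22 in mutant replicates 1 to 3, against 1.41, 2.16 and 1.07 in control replicates 1 to 3. The log2 ratio averaged 1.12 ± 0.20 in mutant and 0.57 ± 0.51 in control (SD, n = 3 each), a difference of 0.55 with an exact p of 0.20. Control replicate 2, the library with the lowest summed level, lay among the mutants, and the other 2 controls below them.

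That placing of the controls recurred in several pairs. Control replicates 1 and 3 both lay below every mutant library in 7 of the 16 pairs, namely Myh3 to Myh8, Actc1 to Acta1, Tnni1 to Tnni2, Tnnt2 to Tnnt3, Tnnc1 to Tnnc2, Myl4 to Myl1 and Casq2 to Casq1, which were counted after their values were seen. Control replicate 2 lay above every mutant in 6 of the 16 pairs, while control replicate 1 did so in 1 and control replicate 3 in 0. The 6 were Tnni1 to Tnni2, Tnnt2 to Tnnt3, Tnnc1 to Tnnc2, Myl4 to Myl1, Myh4 to Myh8 and Atp2a2 to Atp2a1. Myh4 was listed at 0 FPKM in control replicate 2, so its ratio there rests on the pseudocount of 0.1. The Atp2a2 to Atp2a1 pair carries the limit given above. Control replicate 1 did so for Myl2 to Mylpf, where Myl2 was at most 0.928 FPKM in any library. For Tnnc1 to Tnnc2 the ratios were 0.637, 0.479 and 0.537 in mutant libraries, against 0.389, 0.754 and 0.234 in control libraries. For Actc1 to Acta1 they were 1.01, 0.978 and 1.13 in mutant libraries, against 0.838, 1.09 and 0.647 in control libraries. Their exact p were 0.50 and 0.30. Without control replicate 2 mutant lay above control in the same 7 pairs, which restates that placing and is no further result. Mutant lay above control in 2 pairs without mutant replicate 2, in 2 without mutant replicate 3, and in 0 without any other library.

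**Figure D3:**
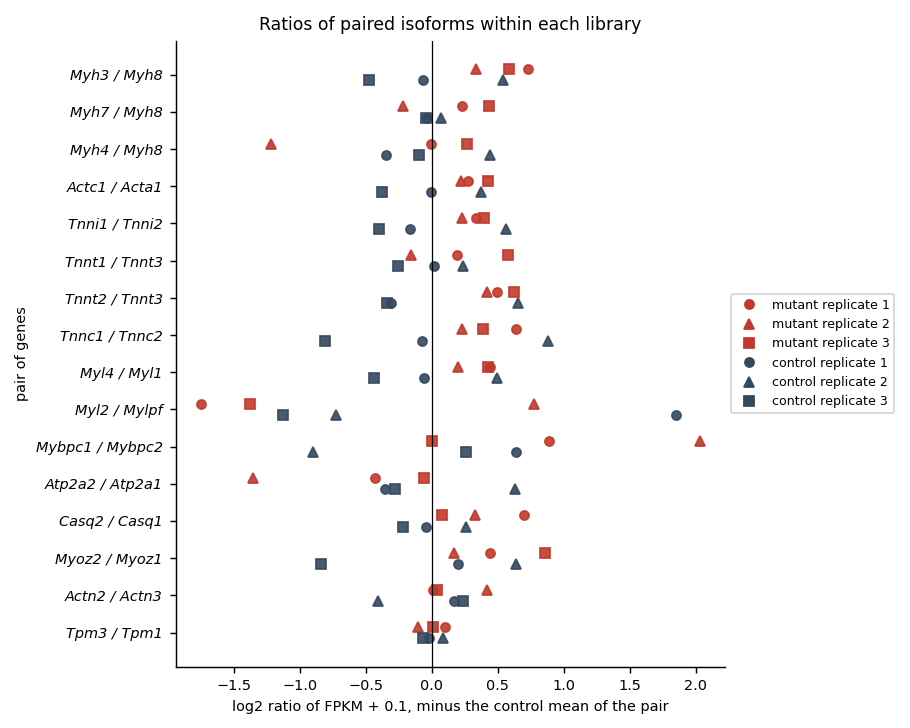
Log2 ratio of FPKM + 0.1 for 16 pairs of genes in each library, minus the mean of the 3 controls for that pair. Mutant points lie above control points in each row, and in no row are the groups separated. In 7 rows control replicates 1 and 3 lie left of every mutant, with control replicate 2 to the right of both controls.

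Shares of family totals show the same values in another way, and several of the isoforms shown were picked for the placing of the controls. Tnnt1 took 26.0%, 21.9% and 31.0% of troponin T FPKM in mutant libraries, against 26.2%, 26.0% and 22.8% in control libraries, so control replicates 1 and 3 did not lie below every mutant. Tnnt2 took 21.1%, 21.5% and 21.0% of troponin T FPKM in mutant libraries, against 13.7%, 22.8% and 14.1% in control libraries. Tnni1 took 46.3 ± 1.46% of troponin I in mutant and 40.996 ± 8.49% in control (SD, n = 3 each). Myl4 took 39.9 ± 2.18% of the essential light chains in mutant and 34.4 ± 7.47% in control (SD, n = 3 each). The SD was larger in mutant for Tnnt1 (4.54 against 1.90 in control) and Casq2 (4.06 against 3.58 in control), so a smaller spread in mutant did not hold for every isoform, and no difference in spread was tested.

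**Figure D4:**
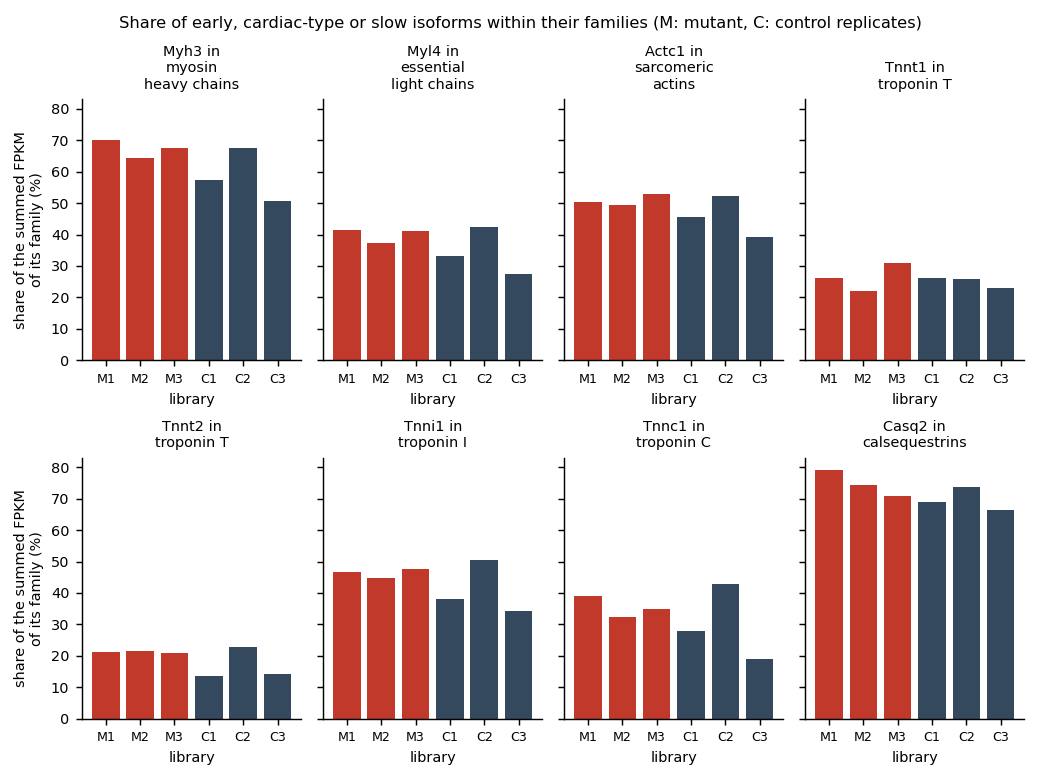
Share of the summed FPKM of its family taken by 1 early, cardiac-type or slow isoform in each library, in percent. Mutant libraries (M1 to M3) are left of control libraries (C1 to C3). In 7 of the 8 panels C1 and C3 are lower than every mutant bar, and in the panel of Tnnt1 C1 lies above 2 of the mutant bars.

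Measured against other muscle genes, about as many members lay below as above. With the mean of 44 companion sarcomere and triad genes in each library as a covariate, 19 of 37 members had positive changes (49.3% of all tested genes). Their median was 0.017, and 0 had a limma adjusted p under 0.05 (0.00677% of all tested genes higher and 0.0271% lower). At an unadjusted limma p under 0.05, 2 of the 37 members were higher in mutant, beside 4.85% of all tested genes. These were Tnni1 (0.38 ± 0.12 SE) and Casq2 (0.22 ± 0.076 SE). Another 4 of the 37 were lower, beside 6.67% of all tested genes. These were Myh8 (-0.49 ± 0.11 SE), Tnnt3 (-0.37 ± 0.13 SE), Mybpc1 (-0.45 ± 0.16 SE) and Tpm2 (-0.15 ± 0.058 SE). Counts this small do not set the members apart from all tested genes. The smallest limma adjusted p in that fit was 0.257, for Myh8.

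The companion list itself, of Z disc, triad and metabolic muscle genes outside the members, was described the same way. Of its 40 tested genes, 0 were called by limma in either direction, 39 had positive changes (49.2% of all tested genes did, median 0.48), and 9 were separated with mutant above control (7.85% of all tested genes). Stac3, which helps couple the membrane sensor to calcium release, measured 5.44, 6.95 and 5.43 FPKM in mutant libraries, against 4.18, 3.49 and 3.56 FPKM in control libraries. Trim63, a ubiquitin ligase of muscle, measured 1.76, 2.65 and 1.499 FPKM in mutant libraries, against 0.797, 0.718 and 0.805 FPKM in control libraries. Their limma adjusted p were 0.16 and 0.182.

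Myogenic factors and muscle stem cell genes control the making of muscle cells. All 13 tested genes of that list had positive changes (49.2% of all tested genes did, median 0.53). Mutant lay above control without overlap in 6 of them (7.85% of all tested genes), and limma called 0. Myod1, a regulator of muscle commitment, measured 5.31, 9.85 and 4.14 FPKM in mutant libraries, against 2.69, 2.97 and 1.64 FPKM in control libraries. Mef2c, a partner of such factors, measured 22.6, 25.6 and 23.1 FPKM in mutant libraries, against 20.5, 17.7 and 18.5 FPKM in control libraries. Their log2 changes were 1.06 ± 0.28 and 0.32 ± 0.074 (SE), with limma adjusted p of 0.265 and 0.211.

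Markers of other cells that use some of the same genes were set beside these values. Of 9 heart markers 1, Tnni3, reached a mean of 1 FPKM, and the rest were too low to be tested. Nppb, a natriuretic peptide gene of the heart, was listed at 0 in every library and Nppa, its relative, was at most 0.342 FPKM in any. Of the other low markers Myl7 and Nkx2-5, named after their values were seen, lay higher in mutant without overlap. Myh6, Mybpc3, Hand2 and Tbx5 overlapped between groups, as did Nppa. Myl7, the atrial light chain, measured 1.64, 1.03 and 1.39 FPKM in mutant libraries, against 0.560, 0.673 and 0.199 FPKM in control libraries. Nkx2-5, a heart transcription factor, measured 0.995, 0.949 and 0.797 FPKM in mutant libraries, against 0.321, 0.241 and 0 FPKM in control libraries. Neither was highest in mutant replicate 2, and their part in the member values was not tested. The summed level of the heart list was 20.3, 19.2 and 24.1 FPKM in mutant libraries and 17.8, 19.1 and 15.8 FPKM in control libraries, with Tnni3 making up most of it. Smooth muscle markers, which include Des, summed to 176, 233 and 171 FPKM in mutant libraries, against 166, 163 and 154 FPKM in control libraries, so mutant replicate 2 was highest there too, and their part in the result was not tested. Of the 11 nonmuscle cytoskeleton genes, 3 had positive changes (median -0.025), and their sum stayed between 3575 and 3744 FPKM in mutant libraries and between 3700 and 3900 FPKM in control libraries.

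Skin and cartilage also differed between the groups. Skin markers summed to 1772, 1762 and 1668 FPKM in mutant libraries, against 1464, 998 and 594 FPKM in control libraries, and all 6 were separated with mutant above control (7.85% of all tested genes). Cartilage markers summed to 305, 263 and 491 FPKM in mutant libraries, against 1247, 1098 and 1340 FPKM in control libraries. Limma called 5 of 6 lower (Col2a1, Col9a1, Col9a3, Acan and Matn1), against 0.203% of all tested genes. The skin sum was lowest in control replicate 3, not in control replicate 2, where the muscle sum was lowest. The cartilage sum was lowest in mutant replicate 2, where the muscle sum was highest. Their part in the muscle values was not tested.

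**Figure D5:**
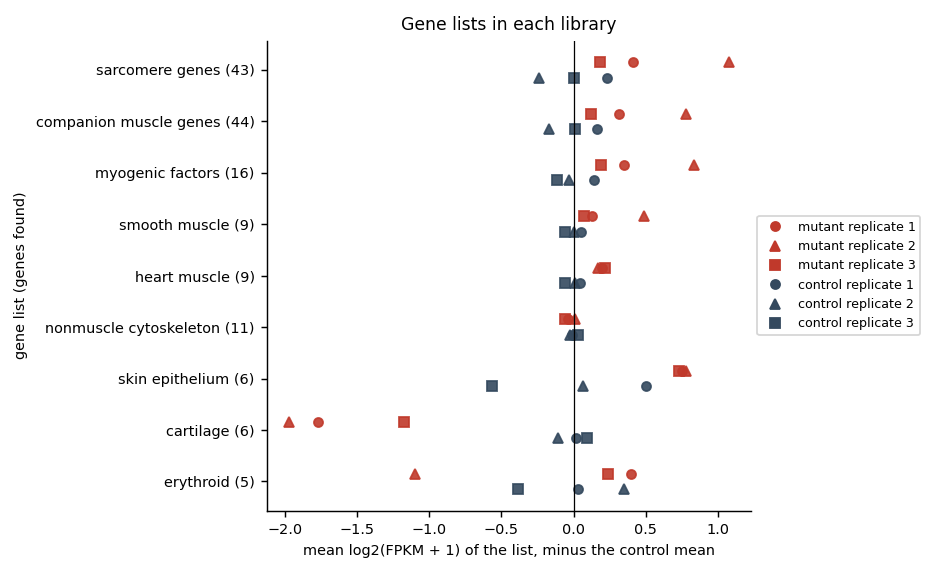
Mean log2(FPKM + 1) of each gene list in each library, minus the mean of the 3 controls. Mutant points lie above control points in each row. The top 3 rows, of muscle genes, place mutant replicate 2 rightmost, while skin is alike in the 3 mutants and nonmuscle cytoskeleton genes lie near 0. The cartilage and erythroid means are lowest in mutant replicate 2, where erythroid Hbb-bs was listed at 0. The erythroid sum was lowest in control replicate 3.

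Outside all the lists, the 5 tested genes whose log2(FPKM + 1) followed the mean of the members most closely over the 6 libraries were Col20a1, Phka2, Phldb2, Idh2 and Myo18b, with Pearson r from 0.9968 to 0.9992. They were picked from all tested genes for this likeness, so r is a description. Myo18b measured 2.11, 3.83 and 1.62 FPKM in mutant libraries, against 1.69, 1.11 and 1.34 FPKM in control libraries. Its ratio of means, mutant over control, was 1.82. The same ratio was 1.18 for Col20a1, 1.10 for Phka2, 1.08 for Phldb2 and 1.08 for Idh2, so a high r does not give the size of a change. Within the list, r with the same mean was lowest for Atp2a2 (0.23), Tpm3 (0.38), Tpm1 (0.54) and Myoz1 (0.75), over 6 libraries each.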

How the data were processed

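The authors deposited 1 FPKM value per gene symbol and library, per the file headers. Cuffdiff 2.2.1, SAMtools 0.1.18, Bowtie2 2.2.8 and TopHat2 2.1.1, with build mm10, are named per the submitters' processing notes. The annotation, strand setting and scaling between libraries were not given in the sources used here. A count model was not applied to FPKM. The spacing of values under 0.15 FPKM gave library sizes relative to control replicate 1 of 1.02, 0.903 and 0.671 for mutant replicates 1 to 3 and 1.11 and 0.938 for control replicates 2 and 3, so mutant replicate 3 was the shallowest. Absolute depth was not estimated. Libraries summed to between 514693 and 546322 FPKM, and no pair of files was identical.

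Values were tested as log2(FPKM + 1) for the 14766 genes whose mean over libraries reached 1 FPKM, by limma 3.58.1 in R 4.3.3 (eBayes with trend, two-sided, 4 residual degrees of freedom), mutant minus control, with Benjamini-Hochberg adjustment and a threshold of 0.05. Fold changes on this scale understate those of low genes. The fit was tested on simulated data. Ratios used a pseudocount of 0.1 and an exact permutation test in scipy 1.17.1. The members and the lists (companion, myogenic, other sarcomere, heart, smooth muscle, nonmuscle, craniofacial regulator, skin, cartilage, erythroid and brown adipocyte genes) were chosen with earlier results of these data known. Members could all be named. Of other lists, called genes or the 2 of smallest p were eligible, and the 5 genes of most alike pattern. Alternatives were other pseudocounts, filters and scalings, other variance settings, library weights, sex or companion genes as a covariate, and each library left out. Gene positions are from GENCODE M21 and start regions from RefSeq.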

Additional observations from a re-analysis of the deposited data

How the results depend on the processing

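Limma called 0 members under each of the 18 alternatives run, with a smallest adjusted p from 0.13 to 0.976. Of all tested genes it called 0.00677% to 0.122% higher and 0.0271% to 0.359% lower. With shares this small, 0 called does not set the members apart from all tested genes. Members with an unadjusted limma p under 0.05 numbered 0 with sex as a covariate (2.07% of all tested genes higher and 3.07% lower). With companion muscle genes as a covariate they numbered 6, with 2 higher (4.85% of all tested genes) and 4 lower (6.67%). In that fit 19 changes were positive (49.3% of all tested genes) and the median was 0.017. That covariate gave the opposite sign to Acta1 (-0.27), Actn2 (-0.098), Atp2a1 (-0.15), Casq1 (-0.15), Ckm (-0.63), Ldb3 (-0.14), Mybpc1 (-0.45), Myh7 (-0.017), Myh8 (-0.49), Myl1 (-0.075), Myoz1 (-0.76), Neb (-0.14), Tnnc2 (-0.15), Tnni2 (-0.19), Tnnt3 (-0.37) and Tpm2 (-0.15). Rescaling without muscle genes made Tpm1 0.0215 and Tpm3 0.0232. Without 1 library at a time, members with an unadjusted limma p under 0.05 numbered 10 to 28, all higher in mutant. The share of all tested genes in that direction was 3.52% to 5.97%. The log2 change then ran from -0.17 to 0.59 for Myoz1 and from -0.085 to 0.044 for Tpm1, and the ratio of summed FPKM from 1.20 to 1.74. The log2 ratio difference then ran from -0.61 to 0.13 for Myh4 to Myh8, from -1.56 to 0.14 for Myl2 to Mylpf, from -0.046 to 0.27 for Actn2 to Actn3 and from -0.046 to 0.055 for Tpm3 to Tpm1. A ratio pseudocount of 1 gave -0.056 for Myh7 to Myh8 and one of 0.01 gave 0.26 for Myh4 to Myh8. The cause was not tested. The ratio of summed FPKM was 1.81 without Tpm1, Tpm3 and Atp2a2, chosen after seeing the data. No paired analysis was possible because the replicate numbers used here only name the libraries, and the labels give none that would pair a mutant with a control. Absolute depth is unknown, which limits the 6 members under 1 FPKM.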

Other observations

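Other gene lists gave these further values. Of 5 tested regulators of tongue and craniofacial muscle 4 had positive changes and limma called 0. Tbx1, a factor of branchial arch muscle, measured 8.50, 9.11 and 7.18 FPKM in mutant libraries, against 7.12, 7.11 and 6.42 FPKM in control libraries, without overlap (limma adjusted p = 0.421). Its lowest value was in control replicate 3.

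Of the sarcomere genes outside the members 3 were tested, all had positive changes (median 0.14) and limma called 0. Erythroid genes (4 tested) summed to 1193, 705 and 1148 FPKM in mutant libraries, against 994, 1423 and 578 FPKM in control libraries, and limma called 0. Brown adipocyte genes (3 tested) summed to 13.9, 29.1 and 11.2 FPKM in mutant libraries, against 15.9, 13.2 and 7.96 FPKM in control libraries, and limma called 0. In mutant replicate 2 the brown adipocyte sum came mostly from Cox8b, also a muscle gene, at 24.0 FPKM, and 1 of the 3 tested genes was highest there. The erythroid sum was lowest of the mutants there. The part of either list in the muscle values was not tested.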
